A study of Mus musculus with 6 samples.

Results

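The killer lectin-like receptors described here are 7 genes, *Klrd1* (ENSMUSG00000030165), *Klrc1* (ENSMUSG00000030167), *Klrc2* (ENSMUSG00000052736), *Klrk1* (ENSMUSG00000030149), *Klre1* (ENSMUSG00000050241), *Klrg1* (ENSMUSG00000030114) and *Klrb1c* (ENSMUSG00000030325), chosen by name out of 32285 genes in the count files. They were followed in single-cell RNA libraries of CD8 T cells sorted on day 12 from mice engrafted with B16-OVA, a mouse melanoma line that expresses ovalbumin. Control mice carried CD8-Cre and the Rosa26Tomato reporter, and CD8-IFNγRKO mice carried both together with IFNgR1flox/flox, so that Cre removed the floxed part of the interferon gamma receptor gene in CD8 T cells while the tumor and the other host cells kept it. CD45+ CD3+ CD8+ Tomato+ cells of 3 mice were pooled into 1 library per genotype from tumors and 1 from draining lymph nodes (LN), and T cell receptor (TCR) libraries were made from both tumor samples. No value ties a cell to a mouse, so that each group was a single sample, no test between groups was possible, and every interval given is a 95% interval of counting error that leaves out the variation between mice.

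Killer lectin-like receptors are C-type lectin proteins that natural killer (NK) cells and activated CD8 T cells carry on their surface. CD94, encoded by *Klrd1*, pairs with NKG2A (*Klrc1*), which inhibits, or with NKG2C (*Klrc2*), which activates, and both pairs bind the non-classical class I molecule Qa-1 (*H2-T23*). NKG2D (*Klrk1*) is an activating receptor for stress-induced ligands and signals through the adaptor DAP10 (*Hcst*), *Klre1* encodes a partner of the KLRI proteins, KLRG1 is an inhibitory receptor for cadherins that marks short-lived effector cells, and *Klrb1c* encodes NK1.1, the classical mouse NK cell marker.

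All 7 genes lie on chromosome 6 of GRCm38.p6, and all but *Klrg1* lie in the region known as the NK gene complex. *Klre1*, *Klrd1*, *Klrk1*, *Klrc2* and *Klrc1* follow each other within 123 kb, from 129559365 (the start of *Klre1*) to 129682852 (the end of *Klrc1*), *Klrb1c* lies 771 kb before *Klre1*, and *Klrg1* lies apart at 122270596 to 122282833. RefSeq upstream sequences were at hand for 5 of the 7 genes (*Klrc1*, *Klrc2*, *Klrk1*, *Klre1* and *Klrb1c*). The 250 bases before the first listed start of the 4 genes that were far higher in tumor cells than in LN cells are shown here, 5′ to 3′ in the direction of transcription, with matches in either direction to TGTGGT, the core of Runx binding sites, in capitals. They were read from GRCm38.p6 at chr6:129678974-129679223 (*Klrc1*, minus strand), chr6:129660597-129660846 (*Klrc2*, minus strand), chr6:129623865-129624114 (*Klrk1*, minus strand) and chr6:129577963-129578212 (*Klre1*, plus strand). The windows of *Klrc1* and *Klre1* lie inside the listed spans of these genes, so that the starts used are not the outer ends given above. Those of *Klrc2* and *Klrk1* reach across the outer ends of theirs.
Klrc1: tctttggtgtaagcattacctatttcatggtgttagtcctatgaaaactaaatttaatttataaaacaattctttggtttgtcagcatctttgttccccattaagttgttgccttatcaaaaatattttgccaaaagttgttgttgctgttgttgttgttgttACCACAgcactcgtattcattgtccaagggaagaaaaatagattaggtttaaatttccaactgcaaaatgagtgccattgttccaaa
Klrc2: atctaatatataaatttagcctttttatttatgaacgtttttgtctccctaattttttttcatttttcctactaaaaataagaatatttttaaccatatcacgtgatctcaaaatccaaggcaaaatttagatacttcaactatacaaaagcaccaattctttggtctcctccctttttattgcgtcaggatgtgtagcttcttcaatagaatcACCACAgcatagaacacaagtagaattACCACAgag
Klrk1: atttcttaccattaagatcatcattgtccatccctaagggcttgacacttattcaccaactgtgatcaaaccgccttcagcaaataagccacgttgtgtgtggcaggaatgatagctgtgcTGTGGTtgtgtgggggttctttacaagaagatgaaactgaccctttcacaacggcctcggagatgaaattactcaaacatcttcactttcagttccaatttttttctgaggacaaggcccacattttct
Klre1: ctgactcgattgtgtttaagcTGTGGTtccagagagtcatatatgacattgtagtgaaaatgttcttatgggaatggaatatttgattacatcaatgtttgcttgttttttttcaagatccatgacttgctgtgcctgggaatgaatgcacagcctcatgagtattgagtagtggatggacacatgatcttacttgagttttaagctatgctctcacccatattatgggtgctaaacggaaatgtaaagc
Of the 7 windows of this length that the 5 genes have between them, 6 held TGTGGT, where 14.0% of 32817 such windows of all genes did. The windows are not independent, since both windows of *Klrc2* overlap and hold the same matches, and those of *Klre1* overlap as well. In the *Klrc2* window it occurred 36 and 9 bases before the start, and in the *Klrc1* window 87 bases before it. The window of *Klrb1c*, a gene that was rare in every library, held it 89 bases before the start, and the second window of *Klre1* did not hold it. AGGTGT (T-box), TTCNNNGAA (GAS), GAAA followed by GAAA with 2 free bases between (ISRE) and CTTTGA (TCF), which 11.8%, 7.01%, 2.97% and 13.8% of all windows hold, had no match in any of the 7. A match of these letters is no evidence of binding, and no match says nothing of the factor.

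After filters on genes per cell, mitochondrial RNA and UMIs of *Cd2*, *Cd8a* and *Cd8b1*, 6641 LN control, 6731 LN CD8-IFNγRKO, 7103 tumor control and 8636 tumor CD8-IFNγRKO cells remained, with medians of 4051, 3863, 6308 and 9402.5 UMIs (unique molecular identifiers, each standing for 1 captured RNA molecule) per cell. Levels are given as CPM, the UMIs of a gene in all kept cells of a group scaled to a total of 1000000 UMIs. Shares of cells in a library were taken after cells were thinned to 1600 UMIs, since depth differed. Thinning left out the cells with fewer UMIs, 237, 41, 701 and 278 in the order above, so that more were lost from tumor control than from tumor CD8-IFNγRKO. Shares within clones were taken without thinning. A UMI is a molecule and not a stretch of RNA, so that CPM is not divided by gene length. *Ifngr1* was at 182 and 137 CPM in control and CD8-IFNγRKO LN and at 718 and 237 CPM in tumors, and the counts do not show whether a molecule held the deleted part. All 5 CD8 T cell markers were present in each library. The filter had required *Cd2*, *Cd8a* and *Cd8b1* of them in every kept cell, so that their presence is no check of the cells. *Ncr1*, which defines NK cells, had no UMI in 3 of the 4 libraries and 6 UMIs in tumor CD8-IFNγRKO. The 5 NK markers together were at 0.802 and 1.32 CPM in LN and 73.8 and 51.8 CPM in tumors, of which *Fcer1g* gave 68.7 and 49.7 CPM. In expanded tumor clones, whose cells had both TCR chains, *Fcer1g* was at 68.7 CPM in control and 51.5 CPM in CD8-IFNγRKO. It was thus found in T cell clones as well. Markers of gamma delta T cells (4 genes) summed to 2.41 and 2.60 CPM in LN and 90.2 and 83.6 CPM in tumors, those of macrophages and dendritic cells (12 genes) to 3.04, 3.57, 20.4 and 13.5 CPM. The part of these cells in the differences between tumor and LN was not tested beyond leaving out cells with several innate-like, macrophage or dendritic cell markers. Of the gamma delta markers that step used *Trdc* alone, so that cells with the others were not left out as such. The gamma delta markers were *Trdc*, *Trgv2*, *Tcrg-C1* and *Tcrg-C2*, and at least 1 of them had a UMI in 10.6% of thinned tumor control cells and 10.0% of thinned tumor CD8-IFNγRKO cells. Such a UMI does not make a cell a gamma delta T cell, and the share of gamma delta T cells was not determined. Between 51 and 82 barcodes were shared by any 2 libraries, at most 1.23% of the smaller.

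*Klrd1* differed from the other members in LN, where it was already expressed. It was at 188 CPM (183 to 193) in LN control, 208 CPM (203 to 213) in LN CD8-IFNγRKO, 1213 CPM (1204 to 1222) in tumor control and 694 CPM (688 to 699) in tumor CD8-IFNγRKO. A UMI of *Klrd1* was found in 24.8% and 27.1% of thinned LN cells and in 79.7% and 60.1% of thinned tumor cells. In 18 and 21 thinned B cell or macrophage-like barcodes of the LN libraries, which should lack the gene and had medians of 2448 and 2403.5 UMIs, none had a UMI of it, with an upper Clopper-Pearson limit of 16.1% for the larger number. These barcodes were chosen to have no UMI of *Cd3e*, *Cd8a* or *Cd8b1*. Barcodes with free T cell RNA were thereby left out beforehand, so that no background share can be read from them. The tumor libraries held only 5 and 3 such barcodes, too few for any share.

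*Klrc1*, the inhibitory partner of CD94, was at 4.91 CPM (4.15 to 5.77) in LN control, 2.84 CPM (2.26 to 3.53) in LN CD8-IFNγRKO, 917 CPM (909 to 925) in tumor control and 652 CPM (647 to 657) in tumor CD8-IFNγRKO. Its UMIs were found in 0.437% and 0.239% of LN cells but in 74.1% and 57.8% of tumor cells. *Klrc2*, the activating partner, stayed low in each library, at 0.267, 0.451, 13.1 and 8.35 CPM in the same order, and in tumors in 2.09% and 1.26% of cells. In LN, where thinning left few or none of its UMIs, 8 of 6641 control and 12 of 6731 CD8-IFNγRKO cells had a UMI of it before thinning. *Klrc1*, *Klrc2* and their neighbour *Klrc3* are close paralogs, and reads that fit more than 1 of them are not counted by Cell Ranger, so that their levels relative to each other are uncertain. *Klrc3* itself had no UMI in LN and was at 0.370 and 0.394 CPM in tumors.

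*Klrk1*, the NKG2D gene, was at 2.91 CPM (2.33 to 3.58) in LN control, 1.80 CPM (1.35 to 2.36) in LN CD8-IFNγRKO, 368 CPM (363 to 373) in tumor control and 297 CPM (294 to 301) in tumor CD8-IFNγRKO. *Klre1* was at 1.84, 2.08, 160 and 130 CPM in that order, and a UMI of it was present in 20.6% and 16.8% of tumor cells. Both genes resembled *Klrc1*, with almost no RNA in LN cells and the higher of the tumor values in control.

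*Klrg1* and *Klrb1c* were rare. *Klrg1* had 1 UMI in each LN library and was at 5.03 CPM (4.47 to 5.63) in tumor control and 6.03 CPM (5.55 to 6.55) in tumor CD8-IFNγRKO, where 0.750% and 0.969% of cells had a UMI. *Klrb1c* had 10, 8, 14 and 29 UMIs in LN control, LN CD8-IFNγRKO, tumor control and tumor CD8-IFNγRKO, from 0.235 to 0.334 CPM, and its intervals overlapped between all 4 libraries. In tumor control the order by CPM was *Klrd1*, *Klrc1*, *Klrk1*, *Klre1*, *Klrc2*, *Klrg1* and *Klrb1c*, with no overlap of intervals between neighbours, and tumor CD8-IFNγRKO had the same order, *Klrd1* and *Klrc1* being only 694 and 652 CPM there.

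**Figure D1:**
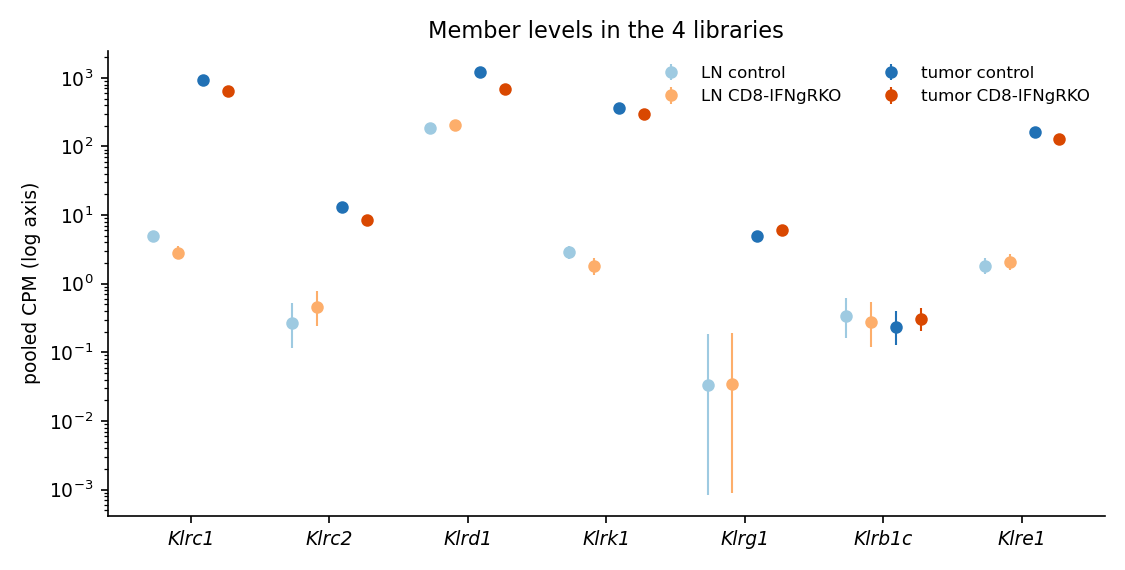
Pooled level of each of the 7 genes (CPM, log axis) in the 4 libraries, 1 point per library with its 95% Poisson interval. *Klrd1* is at 188 and 208 CPM in LN, *Klrc1*, *Klrk1* and *Klre1* rise from below 5 CPM in LN to 130 CPM or more in tumors, and *Klrb1c* stays below 0.4 CPM throughout.

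The comparison of tumor with LN sets the levels of these receptors in the sorted cells of both tissues side by side. The cells differed in state as well as in tissue. *Tcf7* encodes TCF1, a factor of stem-like T cells, and the paper also lists it among naive-like markers. It was at 579 and 553 CPM in LN control and CD8-IFNγRKO and at 14.1 and 21.6 CPM in the tumors. Whether the cells with it were naive or stem-like was not tested. The part of cell state in the ratios was not tested. Genes were counted as 2-fold apart where the log2 ratio with 1 CPM added to both sides was at least 1 in size and the gene reached 10 CPM on either side. In control mice 5 of 5 members that reached this level were higher in tumor, where 15.6% of 8222 genes were higher and 10.5% lower. The ratio of CPM was 187-fold (159 to 221) for *Klrc1*, 127-fold (103 to 158) for *Klrk1*, 87.3-fold (67.0 to 116) for *Klre1*, 49.2-fold (24.8 to 114) for *Klrc2* and 6.47-fold (6.29 to 6.65) for *Klrd1*. In CD8-IFNγRKO mice 4 of 4 were higher, where 16.8% of 8285 genes were, with 229-fold (185 to 288) for *Klrc1*, 165-fold (126 to 221) for *Klrk1*, 62.6-fold (48.6 to 82.1) for *Klre1* and 3.33-fold (3.25 to 3.42) for *Klrd1*. In either genotype every member counted here except *Klrd1* reached 10 CPM in tumor alone. Such a gene cannot be counted as lower in tumor, so that these counts follow in part from the limit of 10 CPM. *Klrg1* rested on a single LN UMI in either genotype, with 150-fold (26.8 to 5961) in control mice. The tumor libraries also hold more UMIs per cell, and on cells thinned to 1600 UMIs the same numbers of members, 5 and 4, were 2-fold higher.

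The proportion between the receptor chains therefore differed between the tissues. Per 100 UMIs of *Klrd1* there were 2.62 (2.21 to 3.08) of *Klrc1* in LN control and 1.37 (1.09 to 1.70) in LN CD8-IFNγRKO, against 75.6 (74.8 to 76.5) in tumor control and 94.0 (93.0 to 95.1) in tumor CD8-IFNγRKO. Per 100 UMIs of *Klrd1*, *Klrk1* rose from 1.55 and 0.867 in LN to 30.4 and 42.9 in tumors. Of *Klrc2* there were only 1.08 and 1.20 per 100 in tumors. UMIs of different genes are captured with unequal efficiency, so that these values compare libraries and not the amounts of the proteins.

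LN cells were split by *Ccl5*, a chemokine gene of antigen-experienced CD8 T cells, and those with it held most UMIs of *Klrc1* and *Klre1* in both libraries and of *Klrk1* in control. *Ccl5* had a UMI in 6.76% of thinned LN control cells and 5.83% of LN CD8-IFNγRKO cells. These cells held 77.4% and 84.2% of the *Klrc1* UMIs, 75.8% and 47.1% of the *Klrk1* UMIs, and 84.6% and 90.9% of the *Klre1* UMIs. The shares rest on few thinned UMIs. In control, cells with and without *Ccl5* held 24 and 7 of *Klrc1*, 25 and 8 of *Klrk1* and 11 and 2 of *Klre1*. In CD8-IFNγRKO they held 16 and 3, 8 and 9, and 10 and 1. In LN control *Klrc1* was at 34.6 CPM in cells with *Ccl5* and 0.733 CPM in the others, on 24 UMIs in the former. *Klrd1* did not follow this split, at 183 CPM with and 188 CPM without *Ccl5* in LN control (log2 ratio -0.04, -0.31 to 0.22) and 232 and 205 CPM in LN CD8-IFNγRKO (0.18, -0.07 to 0.42). The T-box gene *Eomes* did, at 126 CPM with and 19.3 CPM without *Ccl5* in LN control.

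The main question of the design is how CD8 T cells without the interferon gamma receptor differ from control cells. In tumors, the 5 members that reached 10 CPM were all lower in CD8-IFNγRKO, by log2 values of -0.81 (-0.82 to -0.79) for *Klrd1*, -0.60 (-0.73 to -0.46) for *Klrc2*, -0.49 (-0.51 to -0.47) for *Klrc1*, -0.31 (-0.33 to -0.28) for *Klrk1* and -0.30 (-0.34 to -0.26) for *Klre1*. *Klrc2* reached 10 CPM in control alone, at 13.1 against 8.35 CPM, so that among the 5 it could only be lower. The limit decides whether it was counted and does not enter its ratio. None of the 5 was 2-fold apart, where 0.842% of 7722 genes were 2-fold higher and 1.2% lower, and the median of the 5 was -0.49, against 0.02 over all 7722 genes. *Klrd1* was 1.75-fold (1.73 to 1.77) lower. Genes of the CD8 T cell itself were also lower in tumor CD8-IFNγRKO, with *Cd8a* at 1469 CPM in control and 1030 CPM in CD8-IFNγRKO, *Cd3e* at 1705 and 1268 CPM, and the 5 CD8 T cell markers together at 5221 and 3938 CPM. These falls are of a size with that of *Klrc1* and smaller than that of *Klrd1*, and their part in the values of the members was not tested. *Klrg1*, below 10 CPM, had a log2 ratio of 0.22 (0.05 to 0.40), and *Klrb1c* 0.08 (-0.13 to 0.27).

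The *Klrd1* difference was of like size at every depth of the cells. Among tumor cells with fewer than 2000 UMIs, 2000 to 5000, 5000 to 10000 and 10000 or more UMIs, its log2 ratio was -0.77, -0.89, -0.75 and -0.77. That of *Klrc1* ranged from -0.81 to -0.42 over the same groups, that of *Klrk1* from -0.69 to -0.25 and that of *Klre1* from -0.62 to -0.25, in each case with the smallest difference in the deepest cells.

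In LN the ratio of *Klrd1* had the other sign. *Klrd1*, the 1 member above 10 CPM there, was slightly higher in CD8-IFNγRKO, with a log2 ratio of 0.15 (0.10 to 0.20), where 0.0268% of 7472 genes were 2-fold higher and as many lower. *Klrc1* had 147 and 82 UMIs in LN control and LN CD8-IFNγRKO, a log2 ratio of -0.62 (-0.93 to -0.31), and *Klrk1* had 87 and 52, a ratio of -0.48 (-0.83 to -0.12). These UMIs lay in 75 and 51 cells for *Klrc1* and in 54 and 40 cells for *Klrk1*. The intervals take UMIs of the same cell as independent and are too narrow where they are not. *Klre1* had 55 and 60 UMIs (0.12, -0.25 to 0.48). Whether the genotype ratio of *Klrd1* differs between tissues was not tested, as each value rests on 1 library per group.

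**Figure D2:**
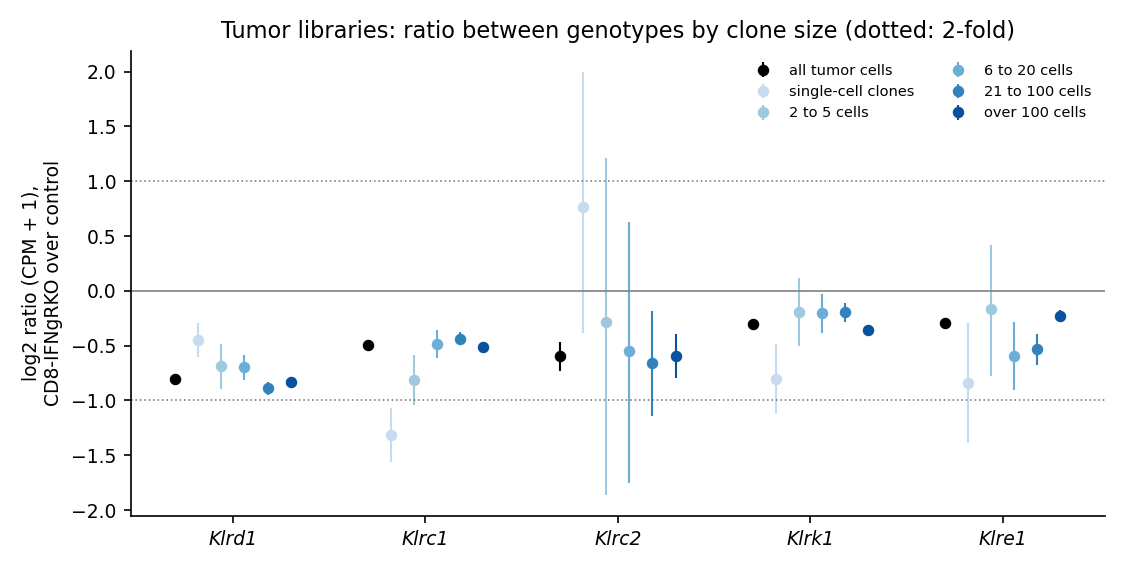
Log2 ratio of CPM plus 1, tumor CD8-IFNγRKO over tumor control, for 5 members in all tumor cells (black) and by clone size (blue, darker for larger clones), with 95% intervals of counting error and dotted lines at 2-fold. In all tumor cells *Klrd1* is lowest at -0.81, and single-cell clones hold both the largest *Klrc1* difference at -1.32 and the smallest *Klrd1* difference at -0.45.

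Both chains of a CD94/NKG2A pair must be in the same cell for the pair to form, and their detection in the same barcodes was counted. Among thinned tumor control cells, *Klrd1* had a UMI in 81.8% (80.7 to 82.9) of those with a UMI of *Klrc1* and 73.8% (71.6 to 75.9) of those without. In tumor CD8-IFNγRKO the shares were 64.6% (63.2 to 65.9) and 54.0% (52.3 to 55.6). Cells with UMIs of both *Klrd1* and *Klrc1* made up 60.7% and 37.3% of thinned tumor cells, and 0.203% and 0.0598% of LN cells. These are shares of barcodes in which both RNAs were detected, and the part of free RNA in the tumor shares was not tested. With *Klrk1* the shares of *Klrd1* were 82.8% and 77.3% in tumor control and 65.0% and 57.5% in tumor CD8-IFNγRKO. *Klrk1* encodes no partner of CD94, and *Klrd1* was thus found in most cells with or without either gene.

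The TCR libraries sort tumor cells by clone, and thereby relate the receptors to expansion. A clone of both chains was found for 4284 control cells in 259 clones and 5937 CD8-IFNγRKO cells in 429 clones. Of these clones 182 and 364 were single cells, the largest held 1104 and 1463 cells, and no clone was shared between the libraries. *Klrc1* was lowest in single cells. In control it was at 345 CPM in single-cell clones, 858 CPM in clones of 2 to 5 cells, 854 CPM in clones of 6 to 20, 946 CPM in clones of 21 to 100 and 977 CPM in clones of over 100 cells. In CD8-IFNγRKO it was at 138, 489, 609, 698 and 685 CPM. Most of the step thus lay between single cells and clones of 2 to 5 cells in both libraries.

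*Klrd1* had a smaller step, from 626 to 1008, 1101, 1160 and 1290 CPM in control and from 458 to 627, 678, 626 and 724 CPM in CD8-IFNγRKO. *Klrk1* was at 176 CPM in single-cell clones of control and between 357 and 390 CPM in the 4 larger classes, and at 100.2 CPM and between 302 and 340 CPM in CD8-IFNγRKO. *Klre1* was at 59.3 CPM in single-cell clones, 98.4 CPM in clones of 2 to 5 and 154 to 166 CPM above that in control, against 32.6, 87.4 and 102 to 142 CPM in CD8-IFNγRKO. *Klrc2* lay between 7.69 and 16.1 CPM in control with overlapping intervals, while in CD8-IFNγRKO it was at 13.7 CPM (8.80 to 20.4) in single-cell clones, 13.1 CPM (4.81 to 28.5) in clones of 2 to 5 cells and 7.63 CPM (6.91 to 8.40) in clones of over 100 cells. The first of these rests on 24 UMIs, of which 1 cell held 7.

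Expanded clones, those of 2 or more cells, were set against single-cell clones within each library. In control 4 of 6 members that reached 10 CPM were 2-fold higher in expanded clones, where 7.45% of 7910 genes were. The log2 ratios were 1.48 (1.32 to 1.64) for *Klrc1*, 1.45 (1.07 to 1.85) for *Klre1*, 1.14 (0.91 to 1.37) for *Klrk1* and 1.00 (0.88 to 1.12) for *Klrd1*, the last just at the limit. *Klrg1* was 2-fold lower, where 4.77% of genes were, at -1.37 (-2.16 to -0.48) on 12 UMIs in 8 single-cell clones. It reached 10 CPM in the single-cell clones alone and could not have been counted as higher in expanded clones. In CD8-IFNγRKO 3 of 5 members were 2-fold higher, where 11.1% of 8036 genes were, with 2.30 (2.12 to 2.49) for *Klrc1*, 2.03 (1.67 to 2.42) for *Klre1* and 1.61 (1.39 to 1.83) for *Klrk1*. *Klrd1* was at 0.63 (0.53 to 0.73), and no member was 2-fold lower, where 7.49% of genes were. *Klrc2* had 0.61 (-0.36 to 1.71) in control, on 7 UMIs in single-cell clones, and -0.75 (-1.31 to -0.15) in CD8-IFNγRKO, which became -0.33 when innate-like marker cells were left out. *Klrg1* in CD8-IFNγRKO had 1.24 (0.08 to 2.25) on 3 UMIs in single-cell clones, and *Klrb1c* had 2 and 4 UMIs there and 3 and 10 in expanded clones. A UMI of *Klrc1* was present in 42.9% of the single-cell clones and 96.7% of the expanded cells of control, and in 23.1% and 91.9% of those of CD8-IFNγRKO, at medians of 4041 and 6252 UMIs and of 3997.5 and 10371 UMIs.

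The genotypes were also compared within each kind of clone. In expanded clones the ratios were those of all tumor cells, with -0.82 (-0.84 to -0.80) for *Klrd1* and -0.49 (-0.52 to -0.47) for *Klrc1*, and 0 of 5 members were 2-fold apart, where 1.01% of 7722 genes were higher and 1.35% lower. In single-cell clones 2 of 6 members were 2-fold lower in CD8-IFNγRKO, where 2.38% of 7757 genes were higher and 2.86% lower. These were *Klrc1*, at 138 against 345 CPM (-1.32, -1.56 to -1.07), and *Klrg1*, at 1.72 against 13.2 CPM on 3 and 12 UMIs (-2.38, -3.61 to -0.90). *Klrg1* reached 10 CPM in control alone, so that it could not have been counted as higher in CD8-IFNγRKO. In the same single-cell clones *Klrd1* had -0.45 (-0.61 to -0.29), *Klrk1* -0.81 (-1.12 to -0.49) and *Klre1* -0.84 (-1.39 to -0.29). Single-cell clones of CD8-IFNγRKO had more *Tcf7* UMIs as well, in 78.3% against 63.2% of cells, and whether the differences are those of cells with *Tcf7* was not tested.

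**Figure D3:**
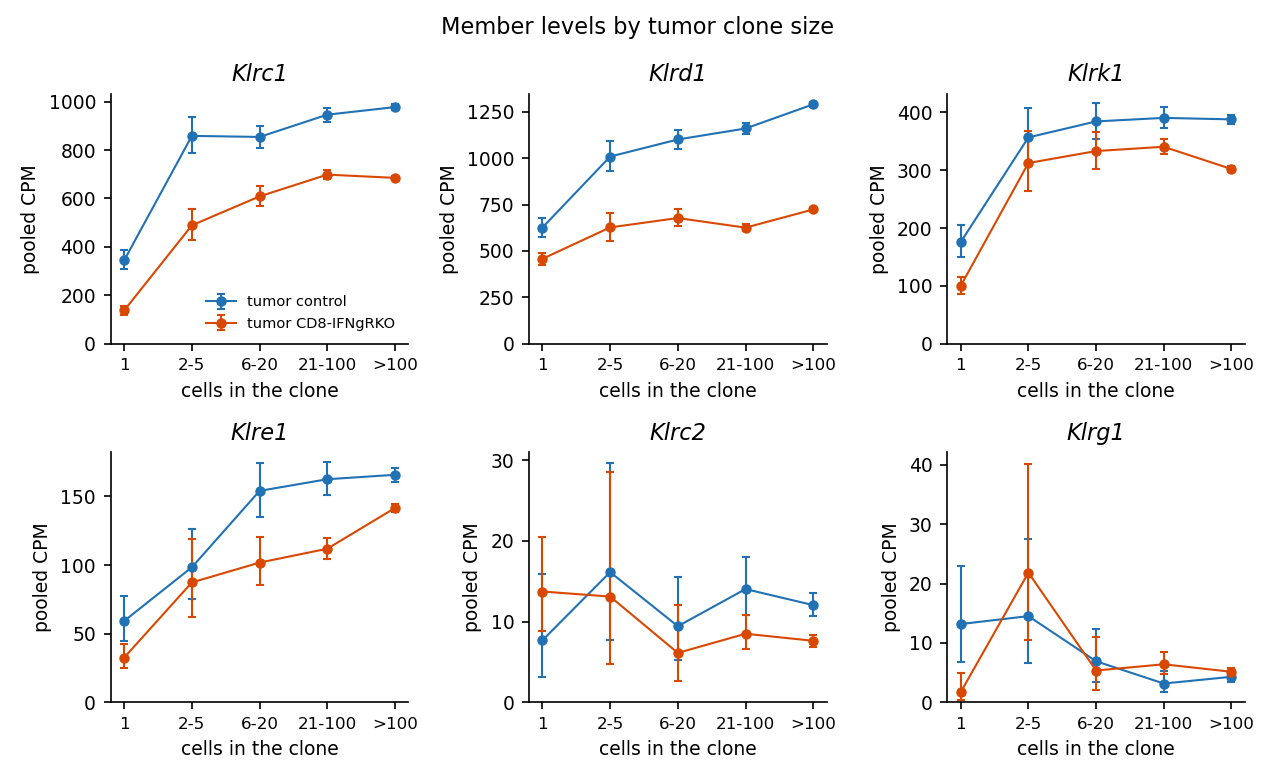
Pooled level (CPM) of 6 members by the number of cells in the clone, for tumor control (blue) and tumor CD8-IFNγRKO (orange), with 95% Poisson intervals. *Klrc1* goes from 345 CPM in single-cell clones to 977 CPM in clones of over 100 cells in control and from 138 to 685 CPM in CD8-IFNγRKO, while *Klrc2* and *Klrg1* stay below 25 CPM.

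Single-cell clones also had a higher level of *Tcf7*, at 354 CPM in control and 473 CPM in CD8-IFNγRKO against 5.07 and 5.74 CPM in expanded clones. *Tcf7* does not tell naive-like from stem-like cells, and which of these the single-cell clones were was not tested. When cells with a UMI of *Tcf7* were left out, an alternative chosen after seeing the data, the log2 ratio of expanded over single-cell clones in control fell to 0.73 for *Klrc1*, 0.68 for *Klre1*, 0.65 for *Klrk1* and 0.92 for *Klrd1*, and none was 2-fold higher, while *Klrg1* stayed lower at -1.64. In CD8-IFNγRKO it was 2.09 for *Klrc1*, 1.43 for *Klre1*, 0.86 for *Klrk1* and 0.50 for *Klrd1*, so that *Klrc1* and *Klre1* alone remained 2-fold higher. This left out 115 of the 182 single-cell clones of control and 285 of the 364 of CD8-IFNγRKO. The values rest on the few that remained and are given without intervals. The share of all genes 2-fold higher under this alternative is not given here, so that these counts say nothing particular to the members.

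The split by *Tcf7* was then taken over all thinned tumor cells, of which 2.94% in control and 5.26% in CD8-IFNγRKO had a UMI of it. *Klrc1* was at 429 CPM (cells with *Tcf7*) and 982 CPM (cells without) in control, a log2 ratio of -1.19 (-1.46 to -0.94), and at 334 and 672 CPM in CD8-IFNγRKO, -1.01 (-1.20 to -0.82). The ratios of *Klre1* were -1.18 and -1.52, those of *Klrk1* -0.64 and -1.08, and those of *Klrd1* -0.79 and -0.40. Each of the 4 genes was therefore lower in *Tcf7* cells of either genotype. Cells with a UMI of *Mki67*, a proliferation gene, differed far less, with ratios for these 4 genes from -0.34 (*Klrd1*) to -0.05 (*Klrc1*) in control and from -0.13 (*Klrd1*) to 0.13 (*Klrk1*) in CD8-IFNγRKO.

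**Figure D4:**
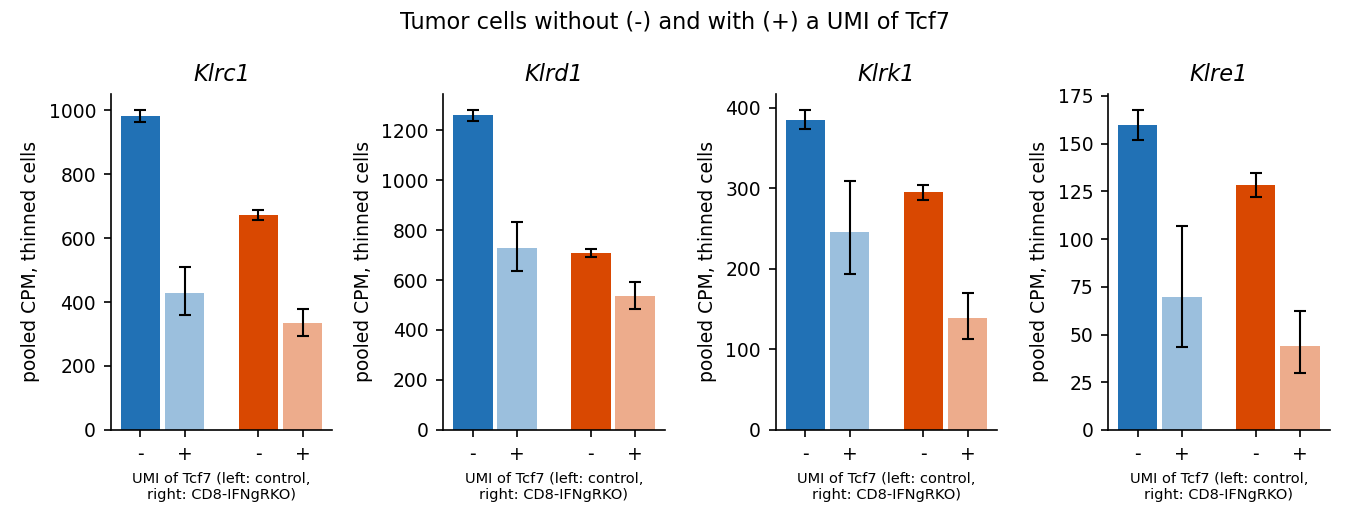
Pooled level (CPM of cells thinned to 1600 UMIs) of 4 members in tumor cells without (-) and with (+) a UMI of *Tcf7*, control in blue and CD8-IFNγRKO in orange, with 95% Poisson intervals and axes from 0. In every pair of bars the cells with *Tcf7* are lower, for *Klrc1* 429 against 982 CPM in control and 334 against 672 CPM in CD8-IFNγRKO.

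Single clones give the spread behind the pooled genotype values, although clones of a library share their mice and are not replicates of a genotype. There were 22 control and 25 CD8-IFNγRKO clones of 20 or more cells. *Klrd1* ran from 747 CPM through a median of 1267 CPM to 1524 CPM in the control clones and from 238 through 657 to 815 CPM in the CD8-IFNγRKO clones. All 25 CD8-IFNγRKO clones lay below the control median, and 19 of them below the lowest control clone. *Klrc1* ran from 708 through 952 to 1289 CPM and from 197 through 706 to 877 CPM, again with all 25 below the control median and 14 below the lowest control clone. For *Klrk1* (234, 381 and 511 CPM in control, 94.2, 313 and 415 CPM in CD8-IFNγRKO) the ranges overlapped more, and 21 of 25 lay below the control median. Without the 2 largest clones of each library the pooled genotype ratios were -0.84 for *Klrd1* and -0.51 for *Klrc1*, about as large as with them.

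*Klre1* was nearly absent from a few clones. In control it had no UMI in 2 of 22 clones, of 35 and 30 cells, where 3 UMIs would have been 24.0 and 30.5 CPM, while the other 20 clones ran from 91.1 to 257 CPM. The same 2 clones had *Klrc1* at 1136 and 1077 CPM, *Klrd1* at 840 and 813 CPM and *Klrk1* at 376 and 234 CPM. In CD8-IFNγRKO 2 clones of 149 and 71 cells were at 3.19 and 15.7 CPM on 2 and 5 UMIs, and the other 23 ran from 51.6 to 195 CPM. There the other members were low as well, with *Klrc1* at 295 and 197 CPM, *Klrd1* at 238 and 241 CPM and *Klrk1* at 94.2 and 128 CPM. The 4 clones had median depths of 3474, 3223, 3211 and 3340 UMIs per cell, less than the library medians, and *Tcf7* at 88.0, 132, 38.3 and 12.5 CPM.

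**Figure D5:**
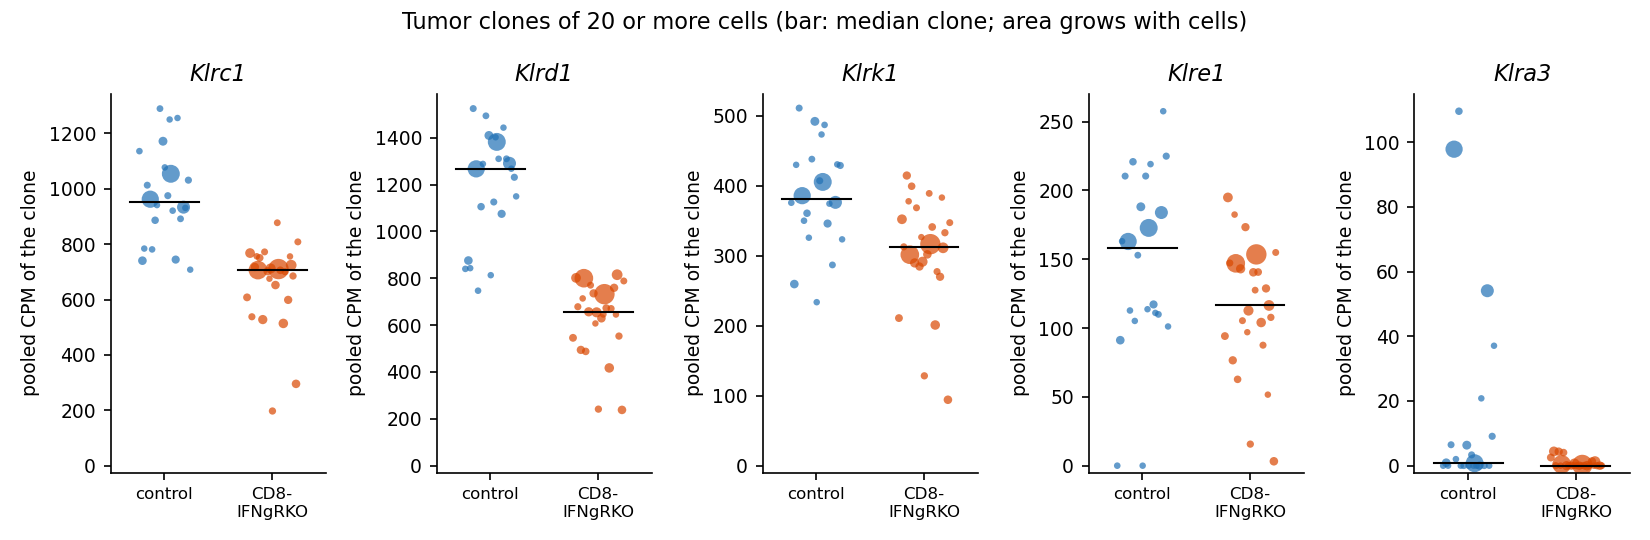
Pooled level (CPM) in each tumor clone of 20 or more cells, control in blue and CD8-IFNγRKO in orange, 1 point per clone with an area that grows with its cells and a bar at the median clone. The *Klrd1* points of CD8-IFNγRKO lie at 815 CPM or below and the control median at 1267 CPM, *Klre1* has 2 control clones at 0, and *Klra3* is above 40 CPM in 3 control clones and no CD8-IFNγRKO clone.

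Other receptors of the gene complex were mostly silent. Of 21 listed genes 19 were in the files and 2 reached 10 CPM in a library, *Klri2* and *Klra3*. *Klri2*, which encodes a partner chain of KLRE1, was at 0.167 and 0.0347 CPM in LN, 45.6 CPM in tumor control and 22.5 CPM in tumor CD8-IFNγRKO, a log2 ratio between genotypes of -0.99 (-1.07 to -0.91), just short of 2-fold. It too was higher in expanded clones, at 46.0 against 3.30 CPM in control and 24.7 against 1.14 CPM in CD8-IFNγRKO, with 3 and 2 UMIs in single-cell clones. *Klra3*, a Ly49 receptor gene, was at 36.0 CPM in tumor control and 1.60 CPM in tumor CD8-IFNγRKO (log2 ratio -3.83, -3.99 to -3.68). Its UMIs were held by few clones. In control, 3 clones of 1009, 516 and 85 cells at 97.8, 54.1 and 110 CPM held 97.0% of the *Klra3* UMIs of all clones of 20 or more cells, and the largest clone, of 1104 cells, was at 0.752 CPM. *Klra7* went the other way with clone size, at 29.7 CPM in single-cell against 0.362 CPM in expanded clones of control and 41.8 against 0.631 CPM in CD8-IFNγRKO, on UMIs in 14 and 25 single-cell clones. It was not alone, as 2 of 4 listed genes at 10 CPM in control and 4 of 5 in CD8-IFNγRKO were 2-fold lower in expanded clones. In each library 1, *Klri2*, was higher, and 4.77% and 7.49% of all genes were lower. The lower genes reached 10 CPM in single-cell clones alone and *Klri2* in expanded clones alone. None of them could have been counted the other way, so that these counts follow from that limit. *Klra3* was at 19.8 CPM in single-cell against 40.3 CPM in expanded clones of control, and at 11.4 against 0.946 CPM in CD8-IFNγRKO. The fourth by level, *Klrb1b*, reached 2.30 CPM in tumor control. Genes of the Ly49 family are near-identical copies, and their counts are uncertain for that reason.

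Among 14 adaptor and phosphatase genes, 12 reached 10 CPM in the tumor comparison, of which 1 was 2-fold lower in CD8-IFNγRKO and none was higher. Of all 7722 genes, 1.2% were lower and 0.842% higher. The lower gene of this list was *Hcst*, the NKG2D adaptor, at 461 and 458 CPM in LN, 587 CPM in tumor control and 253 CPM in tumor CD8-IFNγRKO, a log2 ratio of -1.21 (-1.23 to -1.19). In expanded clones it was at 591 CPM in control and 241 CPM in CD8-IFNγRKO, and in single-cell clones at 584 and 465 CPM. The kinase gene *Zap70* (295 and 273 CPM in tumors), the phosphatase gene *Ptpn6* (230 and 264 CPM) and the CD3 zeta gene *Cd247* (256 and 160 CPM) were within 2-fold.

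Ligand genes can be transcribed by the T cells themselves. Of 16 listed, 13 were in the files and 4 reached 10 CPM in the tumor comparison, none 2-fold apart. Of all 7722 genes in that comparison, 1.2% were lower and 0.842% higher. *H2-T23*, which encodes Qa-1, was at 365 and 336 CPM in LN and at 603 and 576 CPM in tumors, a genotype log2 ratio of -0.07 (-0.09 to -0.05) in tumors. *H2-D1*, whose leader peptide Qa-1 presents, was at 2385 and 2106 CPM in tumors. *Clec2d* was at 113 and 125 CPM in LN and 51.9 and 52.4 CPM in tumors, and *Clec2i* at 39.2 and 46.1 CPM in LN and 3.75 and 7.92 CPM in tumors.

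Of 13 transcription factor and cytokine receptor genes none was 2-fold apart between the tumor genotypes, where 1.2% of 7722 genes were lower and 0.842% higher. The median log2 ratio of the 13 was -0.08. *Il2rb*, a receptor chain for IL-2 and IL-15, was at 157 and 172 CPM in LN, 1119 CPM in tumor control and 939 CPM in tumor CD8-IFNγRKO. *Id2* went from 89.7 and 94.8 CPM in LN to 522 and 405 CPM in tumors, *Runx3* stayed between 116 and 141 CPM in all 4 libraries, and *Tcf7* fell from 579 and 553 CPM to 14.1 and 21.6 CPM.

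Across 12 groups, namely the 2 LN libraries and the 5 clone classes of each tumor library, 4 members had enough counts for a search among 3895 genes for the most similar pattern of log2 CPM. The groups share libraries, and most of any such correlation is the contrast of LN with tumor. Nearest to *Klrc1* were *Serpina3g*, *Bcl2a1d* and *Bhlhe40* (Pearson's r from 0.997 to 0.998), and nearest to *Klrk1* were *Pdcd1*, *Klrc1* and *Plscr1* (0.996 to 0.997). *Klre1* came with *Litaf*, *Pdcd1* and *AA467197* (0.995 to 0.996), and *Klrd1* with *Capns1*, *D16Ertd472e* and *Nr4a2* (0.991 to 0.995).

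Cells with UMIs of 2 or more of 6 genes of innate-like lymphocytes numbered 0 in LN control, 1 in LN CD8-IFNγRKO, 47 in tumor control and 45 in tumor CD8-IFNγRKO. The 6 genes were *Ncr1*, *Fcer1g*, *Tyrobp*, *Zbtb16*, *Trdc* and *Klra8*. Cells with 3 or more of the 12 macrophage or dendritic cell genes numbered 1, 0, 13 and 7. Without the latter cells the number of members 2-fold apart was the same in each of the 6 comparisons of tissue, genotype and clone size. Without the innate-like cells it was the same in 5 of them, and in control *Klrd1* then stood at 0.98 in expanded over single-cell clones, just below 2-fold.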

How the data were processed

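Single-cell RNA (4 libraries) and T cell receptor sequences (2 tumor libraries) were measured in CD8 T cells pooled from 3 mice per group. The authors made the counts with Cell Ranger (6.0.0 per the file headers) on mm10, and the deposited matrices hold whole UMI counts per gene and barcode. The deposited TCR contig tables hold counts of reads and UMIs per chain. Columns left out of use numbered 0.

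A barcode was kept as a CD8 T cell where 200 to 6000 genes were detected, mitochondrial UMIs made up 3% or less, the top gene took 20% or less, and *Cd8b1*, *Cd8a* and *Cd2* all had a UMI. This left 28841136 to 93995655 UMIs per library. Doublets were not removed, and cells were not clustered. Cells were put in 1 clone where their alpha and beta chains (those with most UMIs) shared V gene, J gene and CDR3 at the nucleotide level. Levels were pooled CPM, with exact Poisson intervals. These intervals and those of ratios take UMIs of the same cell as independent. Log2 ratios had 1 CPM added, with conditional binomial intervals, and shares had Clopper-Pearson intervals (scipy 1.17.1 and numpy 2.4.6 under Python 3.11.15). With 1 library per group no test was run, and genes 2-fold apart were counted among those with 10 CPM on either side. The functions were tested on simulated data. Alternatives covered filters, weights of cells, library size, thinning, the added CPM, the minimum, doublets, marker cells and the definition of clones.

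The members and lists were chosen with earlier results of these data known. All members were named in each comparison, and of every other list the 4 genes with the highest CPM in any library. *Klrc3*, *Eomes*, *Fcer1g*, *Cd8a* and *Cd3e* were named outside that rule, after their values were seen. The nearest genes were the 3 with the highest Pearson correlation over 12 groups, among genes that reached 50 CPM. Promoter sequences came from RefSeq (GRCm38.p6), and the motifs were chosen after other results had been seen. The 4 *Klre1*-poor clones and the 3 *Klra3* clones were chosen after their values were seen, as clones below 20 and above 40 CPM.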

Additional observations from a re-analysis of the deposited data

Results flagged for a closer look

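*Klrg1* went in opposite directions from single-cell to expanded clones in the 2 tumor libraries, which rests on the single-cell clones. From clones of 2 to 5 cells upward it was at 14.5, 6.92, 3.17 and 4.30 CPM in control. In CD8-IFNγRKO it was at 21.8, 5.36, 6.41 and 5.15 CPM, so that clones of 2 to 5 cells were highest in both. The intervals take UMIs as independent, although 1 expanded control cell held 13. The log2 ratio of expanded over single-cell clones was -1.37 (-2.16 to -0.48) in tumor control, on 136 UMIs in 81 expanded cells and 12 UMIs in 8 single-cell clones. It was 1.24 (0.08 to 2.25) in tumor CD8-IFNγRKO, on 344 UMIs in 220 expanded cells and 3 UMIs in 2 single-cell clones. The difference between the libraries was not tested, since each is a single sample. With cells that had a UMI of *Tcf7* left out, the values were -1.64 and -0.65, so that the opposite direction was no longer seen. These cells made up 285 of the 364 single-cell clones of CD8-IFNγRKO, so that the second value rests on few clones.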

How the results depend on the processing

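No paired analysis was possible because each group was 1 library, and for the same reason no library could be left out. Of 160 counts under alternatives, 137 stayed within 1.5 times the reported count, and 451 of 588 values of members stayed within their counting interval. The genotype ratio in tumors ranged from -0.84 to -0.75 for *Klrd1* and from -0.57 to -0.48 for *Klrc1* over 13 alternatives. The sign changed under some alternative for *Klrb1c* in 5 of the 6 comparisons, for *Klre1* and *Klrg1* between LN genotypes, for *Klrc2* by clone size in control and for *Klrg1* by clone size in CD8-IFNγRKO, all on few UMIs.

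With 10 CPM added, genes 2-fold apart fell from 158 to 74 between tumor genotypes, from 2144 to 1370 and from 2410 to 1597 between tissues in control and CD8-IFNγRKO, and from 966 to 474 and from 1493 to 836 by clone size. With a minimum of 50 CPM these counts were 49, 943, 1108, 324 and 618, and the 4 genes between LN genotypes became 2. With no minimum they were 270 and 15 between genotypes in tumor and LN, 3359 between tissues in control, and 2213 and 2559 by clone size, where 5 instead of 3 members were then counted in CD8-IFNγRKO. Thinned cells gave 7 genes between LN genotypes and 1783 by clone size in control. Fewer or more genes entered under each minimum. A library size without TCR, mitochondrial, ribosomal and heat shock genes gave 9 genes between LN genotypes. By clone size in control, 3 instead of 5 members were 2-fold apart under that library size and with 10 CPM added, and 1 without *Tcf7* cells, and the cause was not tested.

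The library size without those genes shifted the median log2 ratio of all genes from 0.04 to -0.25 and from 0.05 to -0.22 between tissues, and from 0.06 to -0.10 and from 0.12 to -0.08 by clone size. The share of 2-fold genes that were higher then fell from 59.8% to 40.2%, 57.7% to 40.5%, 61.0% to 44.6% and 59.7% to 44.0%. Between tumor genotypes it was 41.1%, and 51.6% by the mean of cells and 56.1% in thinned cells. Alternatives chosen after seeing the data left out *Tcf7* cells or the 2 largest clones, or kept cells of 5000 to 10000 UMIs. Levels below 1 CPM rest on under 100 UMIs.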

Other observations

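*Hcst* differed from its receptor gene *Klrk1* in its relation to *Tcf7*. In tumor CD8-IFNγRKO, *Hcst* was at 520 CPM in thinned cells with a UMI of *Tcf7* and 322 CPM in those without (log2 ratio 0.69, 0.53 to 0.85), where *Klrk1* was at 139 and 295 CPM. In tumor control *Hcst* was at 645 and 679 CPM (-0.07, -0.29 to 0.13). In cells with a UMI of *Mki67* it was lower in both libraries, at 441 against 704 CPM in control and 232 against 353 CPM in CD8-IFNγRKO. *Eomes* was higher in cells with *Tcf7*, at 96.4 against 27.7 CPM in control and 71.0 against 44.8 CPM in CD8-IFNγRKO, and *Il2rb* was lower, at 625 against 1170 CPM and 605 against 964 CPM.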
